A study of Mus musculus with 28 samples.

Results

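The genes described here are the mouse SNARE, synaptotagmin and exocytosis genes, and their messenger RNA was measured in whole pituitary glands of mice exposed to sleep loss, restraint or both. Members were chosen by symbol alone: synaptotagmins (Syt), synaptotagmin-like proteins (Sytl), syntaxins (Stx), syntaxin-binding proteins (Stxbp), vesicle-associated membrane proteins (Vamp), the Snap genes, complexins (Cplx) and Munc13 genes (Unc13). The rule found 65 of the 32594 genes in the count table. It also took in Snap91, which encodes the clathrin adaptor AP180 and not a SNARE, and Stxbp3b, annotated as a processed pseudogene. Stxbp3b can share reads with Stxbp3a, so the levels of that pair are uncertain.

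The study compared 8 groups of C57BL/6J mice aged 8 weeks, 1 gland per library. Home cage control mice were neither sleep deprived nor restrained. Mice of the PSD groups underwent 12 h of paradoxical sleep deprivation on small columns over water. Restraint groups were held for 20 min in a plastic restrainer, and glands were taken 10 min after its end and 18 h after PSD. PSD + restraint mice received PSD first and restraint the next day. Each treatment was given to females (4 mice per group) and to males (4 control, 2 restraint, 3 PSD and 3 PSD + restraint mice). All mice had been habituated to the water tank on earlier days, and PSD mice shared tanks with cage mates, so tank and treatment cannot be told apart. Whole glands hold the anterior, intermediate and posterior lobes. Total counts per library ran from 14024465 to 52948531, with a median of 33389717.

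Endocrine cells of the pituitary store hormone in dense-core granules and release it when calcium enters. Fusion is driven by SNARE proteins: a VAMP on the granule zips together with a syntaxin and a SNAP-25 family protein on the plasma membrane. Munc18 proteins chaperone the syntaxin, Munc13 proteins prime the granule, complexins hold the assembled SNAREs ready, and synaptotagmins sense calcium. Synaptotagmin-like proteins bind the small GTPase Rab27 and dock granules at the membrane.

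The defining hormone genes were present in every library: the summed level of 10 anterior lobe markers (Gh, Prl, Pomc, Tshb, Lhb, Fshb, Cga, Pou1f1, Tbx19, Nr5a1) ran from 242828 to 365119 CPM, the read count scaled to the normalised size of the library. Some libraries stood apart in their marker genes. In male control mouse 1 the neurointermediate lobe score, the mean log2 CPM of Pax7, Oacyl, Rax, Nkx2-1 and Col25a1, was 1.48, against 4.30 to 5.52 in the other 27 mice. In the same gland the posterior lobe peptide gene Oxt was at 0.170 CPM, against 8.00 to 29.1 elsewhere. In female PSD mouse 1 the forebrain score, the mean log2 CPM of 9 forebrain and olfactory genes such as Slc17a7, Tbr1 and Omp, was 2.80. The olfactory gene Omp stood at 82.7 CPM there and at 12.2 CPM or less in the other mice. The forebrain score was next highest in female PSD + restraint mouse 4 (1.75) and male control mouse 1 (1.17). The changes of Syt4, Oacyl, Pomc and Cplx1 and the sex difference of Unc13c are given below with these libraries and without female PSD mouse 1, and male control mouse 1 where it entered the fit.

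Levels between genes were compared per length, as CPM per kilobase of the mean annotated transcript, in the 8 control mice. The highest member was Vamp2, the granule VAMP, at 210.3 CPM per kb on average (range 193 to 233). Snap47, a SNAP-25 relative of internal membranes, followed at 193 (173 to 223), and the ranges of these 2 genes overlapped. Snap25, the plasma membrane SNARE, came next at 127 (117 to 136) and did not overlap Snap47. The order of genes depends on the mean annotated lengths, 0.804 kb for Snap47 and 2.67 kb for Snap25. In CPM Snap25 stood above Snap47, with means of 329 and 144 in female and 348 and 166 in male controls. Ranges between mice do not cover the uncertainty of the lengths. Stx5a, a Golgi syntaxin, was at 104, and Stxbp2 (Munc18-2), at 96.3, and Stx16 (trans-Golgi), at 95.8, had overlapping ranges.

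Among the calcium-binding synaptotagmins Syt7, a high-affinity sensor, led at 94.0 CPM per kb (87.9 to 100.3), followed by Syt1, the fast sensor of synaptic vesicles, at 73.5 (60.9 to 82.0). Of the other synaptotagmins Syt4 was highest at 65.2 (57.8 to 76.7). Sytl4 (granuphilin, a docking factor of dense-core granules) stood at 79.7, Stx4a at 62.5, Cplx2 at 47.4, Unc13a (Munc13-1) at 36.8 and Snap91 at 22.1. Stx1a, the classical neuronal syntaxin, reached 10.7 CPM per kb, below Stx4a, Stx3 (42.8) and Stx2 (31.1) in each of the 8 control mice. The lowest 5 members averaged 0.0866 CPM per kb or less, namely Syt10, Stx19, Syt2, Cplx4 and Syt8. Vamp7 had no length in the annotation used and is not ranked.

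**Figure D1:**
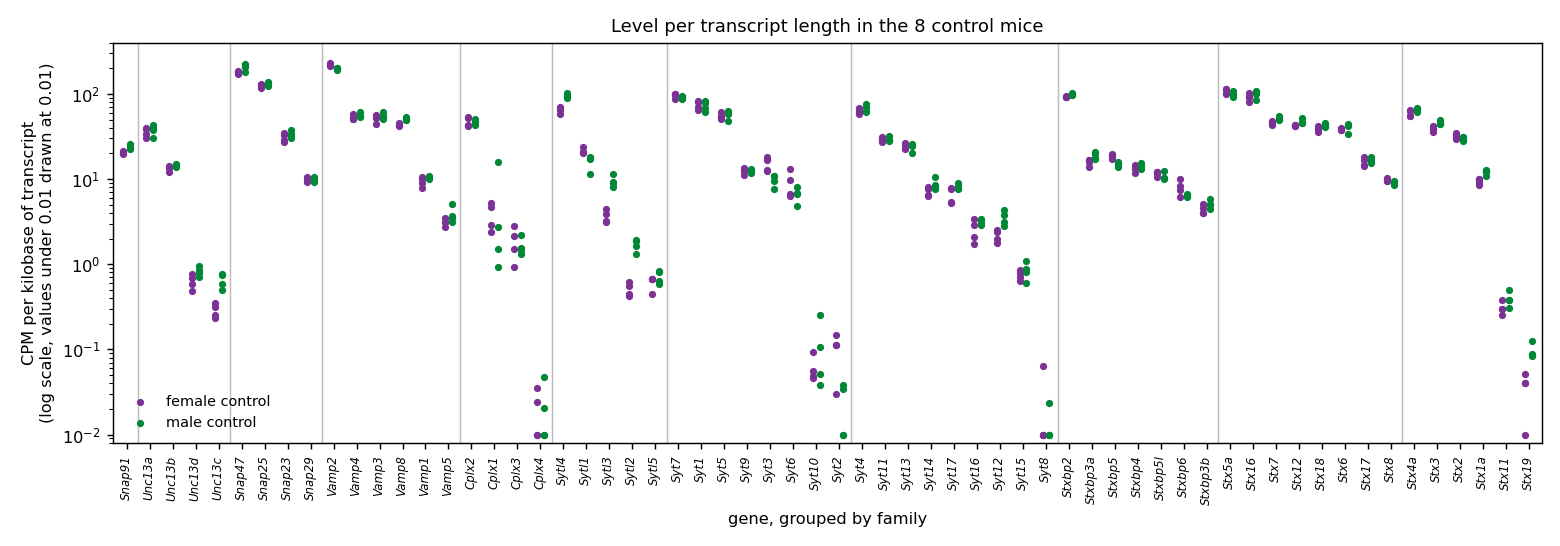
Level of members with an annotated length in the control mice, as CPM per kilobase of transcript on a log axis, with 1 point per mouse (4 females, 4 males) and vertical lines between families. Vamp2 and Snap47 sit highest, at averages of 210.3 and 193, and the 5 members at 0.0866 or less sit at the bottom.

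Genes with too few counts were left out of the tests. Of the 65 members, 60 were tested in females, 62 in males and 63 over all mice. Syt8 and Cplx4 entered no test, Syt2 entered only that over all mice, and Syt10 and Stx19 were not tested in females. A gene was called where edgeR's quasi-likelihood test gave an adjusted p of at most 0.05 over all genes and the change was at least 1.25-fold (0.32 on the log2 scale). In whole glands, fewer cells of a type and less RNA per cell cannot be told apart. All comparisons against control within a sex share the same control mice.

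Syt4 and Syt13 were the members that treatments changed. Syt4, known as a gene induced by depolarisation, resides on the Golgi and on immature secretory granules. In females Syt4 was at 225, 267, 237 and 248.7 CPM in the control mice, and at 369, 432, 271 and 416 CPM after restraint. PSD alone left it at 199, 270.3, 241 and 256 CPM, and PSD + restraint took it to 492, 386, 406 and 386 CPM. Every restrained female exceeded every unrestrained one, with the lowest restrained mouse, female restraint mouse 3 (271 CPM), next to the highest unrestrained mouse (270.3 CPM). In males Syt4 was at 298, 271, 245 and 236 CPM in controls, 299.6 and 379 CPM after restraint and 341, 285 and 355 CPM after PSD. PSD + restraint males had 429, 427 and 421 CPM, above all other males. Single-treatment males overlapped each other, and only the PSD mouse at 285 CPM lay within the control range.

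Against control, Syt4 rose with restraint in females, from 245 ± 18.1 to 372 ± 72.5 CPM (mean ± SD, n = 4 each), by 0.61 ± 0.13 on the log2 scale (± SE; edgeR adjusted p = 0.0427). It was the single member called of 60, and 0.543% of all genes were called in this comparison. The call depended on single mice: with 1 mouse left out it held only without restraint mouse 3, PSD mouse 1, PSD mouse 2 or PSD + restraint mouse 1, and the adjusted p reached 0.148 over 22 alternatives while the log2 change stayed between 0.51 and 0.73. PSD + restraint raised Syt4 to 418 ± 50.5 CPM, by 0.78 ± 0.13 (edgeR adjusted p = 0.00466). Within PSD mice, restraint raised Syt4 by 0.79 ± 0.13 (edgeR adjusted p = 0.00559), and this call held in 22 of 22 alternatives. After PSD alone the log2 difference of Syt4 in females was -0.01 ± 0.13 (edgeR adjusted p = 0.978).

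In males PSD + restraint raised Syt4 from 263 ± 28.1 (n = 4) to 426 ± 4.06 CPM (n = 3), by 0.70 ± 0.10 on the log2 scale (edgeR adjusted p = 0.00315), in 18 of 18 alternatives. Restraint alone gave a log2 difference of 0.37 ± 0.11 with 2 mice (edgeR adjusted p = 0.467), and PSD alone gave 0.32 ± 0.10 with 3 mice (edgeR adjusted p = 0.381). Neither passed the test. Over all mice, with sex in the model, Syt4 rose with restraint by 0.54 ± 0.10 (edgeR adjusted p = 0.00334) and with PSD + restraint by 0.75 ± 0.10 (edgeR adjusted p = 9.38e-06). Without female PSD mouse 1 and male control mouse 1 these values were 0.56 and 0.77. The departure of PSD + restraint from the sum of the single responses was 0.07 ± 0.15 (edgeR adjusted p = 1).

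Syt13, a synaptotagmin whose C2 domains lack the residues that bind calcium, lies on chromosome 2 (chr2:92915098-92956058, GRCm38, plus strand). Female control mice had 87.5, 100.02, 92.4 and 85.9 CPM and restrained females 115, 133, 108 and 108 CPM. PSD females were at 80.9, 96.2, 90.04 and 91.6 CPM and PSD + restraint females at 139, 111, 123 and 109 CPM. As for Syt4, no restrained female overlapped an unrestrained one. In males the values were 93.4, 91.4, 76.4 and 95.99 CPM in controls, 73.9 and 110.3 CPM after restraint, 97.2, 82.7 and 103 CPM after PSD and 148, 147 and 131 CPM after PSD + restraint. The PSD + restraint males lay above all other males, whereas restraint mouse 2 had the lowest value of all.

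Syt13 rose with PSD + restraint in females by 0.40 ± 0.09 on the log2 scale (edgeR adjusted p = 0.0206) and with restraint within PSD by 0.43 ± 0.09 (edgeR adjusted p = 0.0249). The first of these calls was lost without control mouse 3 or 4 or PSD + restraint mouse 1 or 3 (log2 change 0.33 to 0.45 with each mouse left out). The second was lost without PSD mouse 1, 3 or 4 or PSD + restraint mouse 1 or 3 (0.35 to 0.47). Restraint alone gave 0.35 ± 0.09 (edgeR adjusted p = 0.0836), which did not pass. In males PSD + restraint raised Syt13 by 0.68 ± 0.12 (edgeR adjusted p = 0.0124), a call lost without PSD + restraint mouse 1 or 2 (0.61 to 0.73). Restraint alone gave 0.05 ± 0.14 in males (edgeR adjusted p = 1). Over all mice Syt13 rose with PSD + restraint by 0.53 ± 0.09 (edgeR adjusted p = 0.000231) and the restraint difference was 0.26 ± 0.09 (edgeR adjusted p = 0.21). Without male restraint mouse 2 the restraint difference was called, at 0.37.

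**Figure D2:**
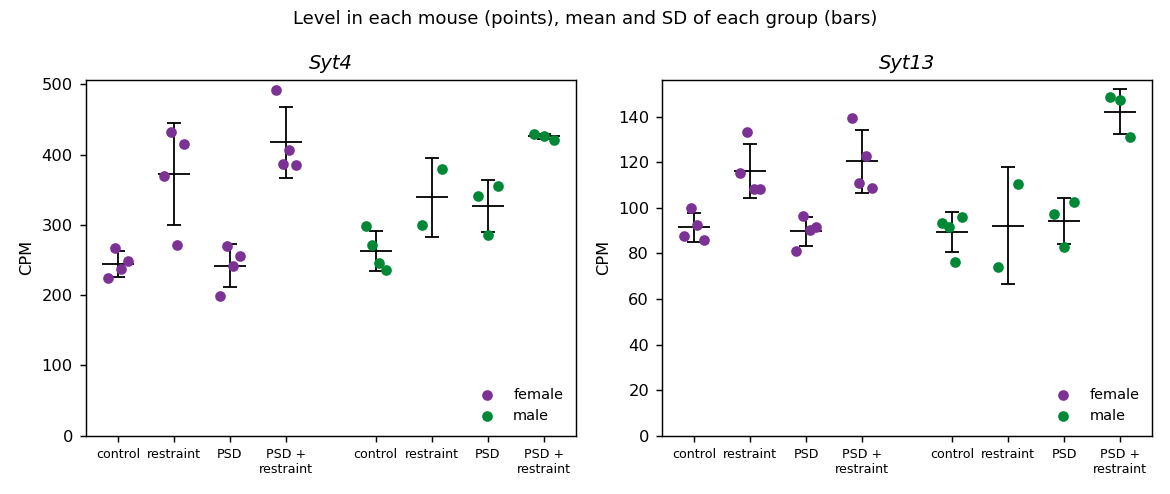
Syt4 (left) and Syt13 (right) in CPM in each mouse of the 8 groups, with points for mice and bars for the mean and SD. All restrained females lie above all unrestrained females in both panels, and the 3 PSD + restraint males (421 to 429 CPM for Syt4, 131 to 148 CPM for Syt13) lie above the other males.

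Neurointermediate lobe genes moved alongside in part. Their score was 4.41 to 4.99 in female control and 4.30 to 5.29 in female restraint mice. It was 4.79 to 5.52 in PSD and 4.96 to 5.46 in PSD + restraint females, overlapping the control range. Male ranges were 1.48 to 4.88 in control and 4.77 to 4.80 in restraint mice. After PSD the male score was 4.58 to 4.78, and after PSD + restraint 4.39 to 5.50. With PSD + restraint over all mice, Oacyl (0.86 ± 0.24 on the log2 scale, edgeR adjusted p = 0.0227) was called of the 5 score genes, and so was Pomc (0.99 ± 0.27, edgeR adjusted p = 0.0157), which corticotropes and melanotropes express. Without female PSD mouse 1 and male control mouse 1 both were still called, at 0.72 (edgeR adjusted p = 0.0217) and 0.84 (edgeR adjusted p = 0.0132). With the score as a covariate, neither gene was called for PSD + restraint in females: Syt4 differed by 0.65 (edgeR adjusted p = 0.0700) and Syt13 by 0.30 (edgeR adjusted p = 0.220). Restraint within PSD females kept both calls in that fit, at 0.76 and 0.40, and PSD + restraint males did at 0.78 and 0.68. The male fit leans on control mouse 1, whose score of 1.48 stood apart, so it cannot show what lobe content contributes. The summed level of 6 activity-regulated genes (Fos, Fosb, Egr1, Nr4a1, Npas4, Junb) had a median of 207 CPM in control, 948 in restraint, 201 in PSD and 1511 in PSD + restraint females. The medians in males were 84.9, 1553, 299 and 1343 CPM. The part of these 6 genes, and that of lobe content, in the changes of Syt4 and Syt13 was not tested.

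Other members did not reach a call with any treatment. In females 2 of 60 were called for PSD + restraint (2.2% of all genes) and 2 of 60 for restraint within PSD (0.941%). No member was called for PSD alone (0.0277% of all genes) or for prior PSD among restrained females (0.0332%). In each of these 2 comparisons edgeR gave 9 members at an unadjusted p under 0.05, and DESeq2 called 0. The share of all genes at that unadjusted limit is not given here or below, so no excess can be read from such counts. In males 2 of 62 were called for PSD + restraint (2.56%) and none for restraint (0.296%), PSD (0.00547%), restraint within PSD (0.285%) or prior PSD within restraint (0.00547%). At an unadjusted p under 0.05 edgeR gave 5, 5, 6 and 6 members in these 4 comparisons. DESeq2 called 0 and 0 in the first pair. It called 2 (Syt4 and Syt13) for restraint within PSD and 1 (Syt13) for prior PSD within restraint, where edgeR gave Syt13 a log2 difference of 0.59 ± 0.13 (edgeR adjusted p = 0.102) and 0.63 ± 0.15 (edgeR adjusted p = 0.247).

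Over all mice restraint called 1 of 63 members (1.14% of all genes), PSD 0 (0.671%) and the combination 2 (5.46%). For PSD, 13 members were at an unadjusted p under 0.05 by edgeR and DESeq2 called 0. The median log2 change of the 63 members was 0.01 with restraint, 0.01 with PSD and 0.02 with both, beside 0.00, 0.01 and 0.00 over all genes tested. The interaction called no gene at all (0%), with 2 members at an unadjusted p under 0.05 by edgeR and 0 called by DESeq2. Differences between females and males in the response to each treatment were tested directly. They called 0 of 63 members each, and 0%, 0% and 0% of all genes, with 3, 3 and 2 members at an unadjusted p under 0.05 by edgeR and 0 called by DESeq2. For Syt4 the female response minus the male response was 0.24 ± 0.19 (restraint), -0.33 ± 0.18 (PSD) and 0.07 ± 0.18 (PSD + restraint), and for Syt13 it was 0.30 ± 0.17, -0.10 ± 0.16 and -0.28 ± 0.15.

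**Figure D3:**
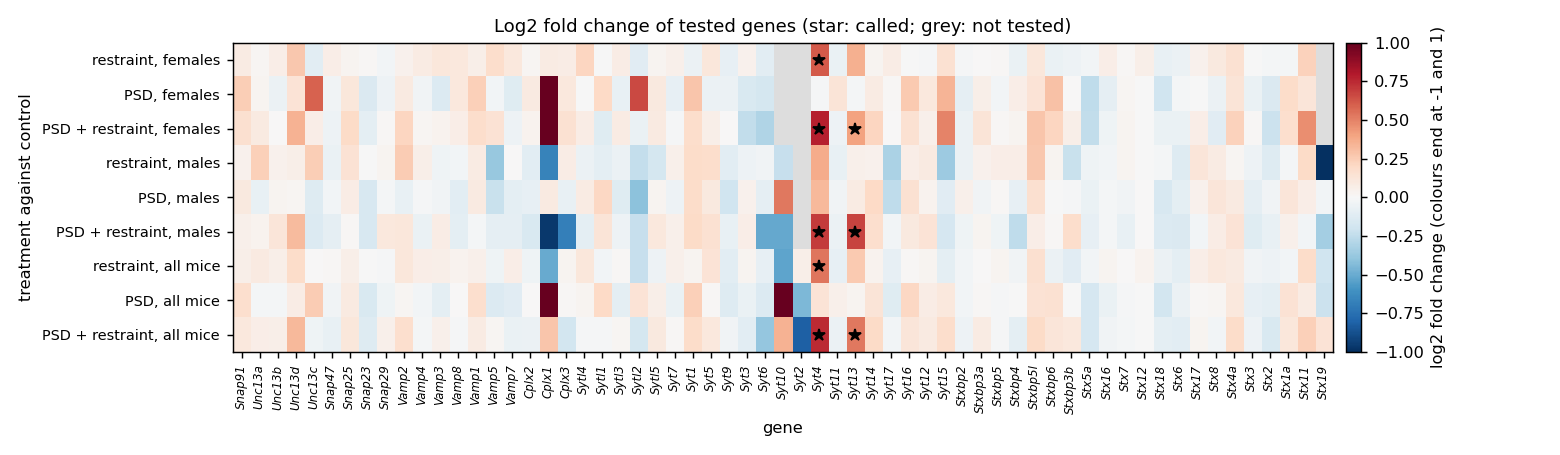
Log2 fold change of tested members (columns, by family) for 3 treatments against control in females, males and all mice (rows), with stars on called changes and grey where a gene was not tested. Stars appear on Syt4 and Syt13 alone, and the deep colours of Cplx1 and Syt10 carry no star.

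Several syntaxins passed the adjusted p but not the fold limit. At any fold, 0.813% of all genes passed for PSD and 10.9% for PSD + restraint over all mice. Stx18, a syntaxin of the endoplasmic reticulum, differed by -0.18 ± 0.04 with PSD over all mice (edgeR adjusted p = 0.0338), the single member of 63 to pass there. Its female values were 40.5, 45.2, 44.3 and 47.5 CPM in controls and 37.7, 40.2, 37.8 and 38.3 CPM after PSD, and its male values 48.4, 47.5, 46.3 and 52.03 and 43.2, 42.6 and 43.7 CPM. The control and PSD ranges did not overlap in either sex. PSD + restraint females had 40.3 to 43.9 CPM, which overlapped the female controls. PSD + restraint males had 41.2 to 45.6 CPM, below all male controls. Over 35 alternatives the adjusted p of Stx18 ran from 0.00544 to 0.0952 and exceeded 0.05 in 11, among them those without female control mouse 2 or 4, female PSD mouse 1, 2 or 3, male control mouse 4 or male PSD mouse 2. Stx5a, which acts in transport from the endoplasmic reticulum to the Golgi, stood at 128, 144, 126 and 143 CPM in female controls and at 111, 114, 104 and 121 CPM after PSD. After PSD + restraint it was at 114, 109, 118 and 110.05 CPM, and both PSD groups lay below all control females. Its log2 difference was -0.25 ± 0.06 for PSD in females (edgeR adjusted p = 0.108) and -0.25 ± 0.06 for PSD + restraint (edgeR adjusted p = 0.0374). For PSD + restraint in females the adjusted p ran from 0.00302 to 0.274 over 22 alternatives and exceeded 0.05 in 9, among them those without control mouse 2 or 4 or any 1 of the PSD + restraint mice. Over all mice it was -0.17 ± 0.05 (edgeR adjusted p = 0.0145) for PSD + restraint, with an adjusted p of at most 0.0374 over 35 alternatives.

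Stx4a, a plasma membrane syntaxin of many secretory cells, differed by 0.18 ± 0.04 with PSD + restraint over all mice (edgeR adjusted p = 0.00453, from 0.000461 to 0.0257 over 35 alternatives). Female controls had 54.4, 46.6, 53.7 and 47.3 CPM and PSD + restraint females 60.4, 56.3, 59.6 and 59.4 CPM, with no overlap, while the male ranges overlapped (52.3 to 58.2 against 57.0 to 64.4 CPM). Stx4a overlaps a gene on the opposite strand, and the strand setting of the counting is not given in the sources used here. Syt14, a synaptotagmin that does not bind calcium, also passed at any fold (0.19 ± 0.06, edgeR adjusted p = 0.0485), though its adjusted p exceeded 0.05 in 24 of 35 alternatives and reached 0.120. With Syt4 and Syt13 these made 5 of 63 members. Snap91 differed by 0.17 ± 0.06 with PSD over all mice (edgeR adjusted p = 0.130) and Stxbp5l (tomosyn-2, an inhibitor of SNARE assembly) by 0.16 ± 0.07 with restraint (edgeR adjusted p = 0.353). In males Syt17 differed by -0.31 ± 0.09 with restraint (edgeR adjusted p = 0.457) and Vamp2 by 0.25 ± 0.08 (edgeR adjusted p = 0.592).

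The 8 genes of the core fusion machinery listed here differed by -0.06 to 0.18 between PSD + restraint mice and controls over all mice. On the log2 scale Vamp2 differed by 0.17 ± 0.06 (edgeR adjusted p = 0.0668), Snap25 by 0.11 ± 0.05 (edgeR adjusted p = 0.189) and Stx1a by 0.11 ± 0.07 (edgeR adjusted p = 0.334). Syt1 differed by 0.18 ± 0.09 (edgeR adjusted p = 0.200), Syt7 by 0.01 ± 0.04, Cplx2 by -0.06 ± 0.07, Unc13a by 0.07 ± 0.08 and Sytl4 by -0.01 ± 0.07. None of these 8 genes passed the test. In females Snap25 was at 311 to 345 CPM in controls and 365 to 379 CPM after PSD + restraint, without overlap. The male ranges overlapped (327 to 364 against 326 to 370 CPM). The third complexin gene, Cplx3, had 1.42, 1.30 and 1.36 CPM in PSD + restraint males and 1.75 to 2.95 CPM in male controls, without overlap, and a log2 difference of -0.68 ± 0.19 (edgeR adjusted p = 0.0870).

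Cplx1 had the widest spread of the complexins, and its 3 highest values fell in the 3 libraries with the highest forebrain scores. It stood at 70.7 CPM in female PSD mouse 1, 40.7 CPM in female PSD + restraint mouse 4, 20.9 CPM in male control mouse 1 and 16.5 CPM in male PSD mouse 2. The forebrain scores of these 4 mice were 2.80, 1.75, 1.17 and 0.66. The other 24 mice had 1.17 to 14.7 CPM, among them female PSD + restraint mouse 2, which had the next highest forebrain score (1.02) and 5.89 CPM of Cplx1. In females PSD gave Cplx1 a log2 difference of 2.26 ± 0.89 that did not pass (edgeR adjusted p = 0.188), and the 3 PSD females other than mouse 1 had 5.62, 14.7 and 3.54 CPM, beside 3.11 to 6.79 CPM in controls. Without PSD mouse 1 the difference was 0.67 ± 0.76 (edgeR adjusted p = 0.698). Syt10 (1.77 CPM) and Unc13c (6.65 CPM) also had their highest value over all mice in female PSD mouse 1. The part of forebrain tissue in these values was not tested.

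**Figure D4:**
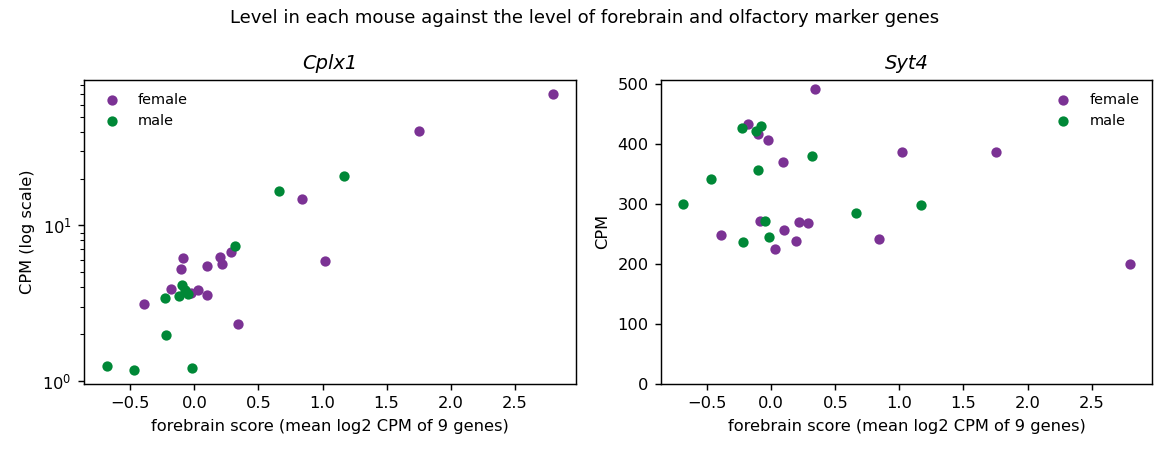
Cplx1 (left, log axis) and Syt4 (right, linear axis) in CPM in each mouse against its forebrain score, the mean log2 CPM of 9 forebrain and olfactory genes. The mice with the 3 highest scores (2.80, 1.75 and 1.17) have the 3 highest Cplx1 levels (70.7, 40.7 and 20.9 CPM), and the mouse with the highest score has the lowest Syt4 level (199 CPM).

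Females and males differed in 12 of 63 members over all mice, beside 14.9% of all genes. Of these, 7 were lower in females (7.79% of all genes were) and 5 were higher (7.11%). At any fold 31 members passed the adjusted p, 7 higher and 24 lower in females, beside 34.4% of all genes. That share of all genes was not split by direction, so the 7 and 24 have no background beside them. The median log2 difference was -0.08 over the 63 members and 0.01 over all genes tested.

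Synaptotagmin-like proteins held 4 of the 12 calls, of 5 members tested. Sytl3 ran from 3.90 to 7.26 CPM in the 16 females (median 6.04) and from 11.7 to 18.7 CPM in the 12 males (median 14.4), with no overlap and a log2 difference of -1.30 ± 0.09 (females minus males, edgeR adjusted p = 2.47e-11). Sytl2 ran from 0.670 to 4.03 CPM in females (median 1.13) and from 2.34 to 4.84 CPM in males (median 3.601), a log2 difference of -1.41 ± 0.19 (edgeR adjusted p = 1.67e-06). Only female PSD mouse 3 (4.03 CPM) lay within the male range. Sytl4 was at 131 to 191 CPM in females and at 194 CPM or more in males, without overlap, and was lower in females by -0.46 ± 0.05 on the log2 scale (edgeR adjusted p = 5.56e-08). Sytl1 went the other way, with medians of 34.1 CPM in females and 28.4 CPM in males (0.36 ± 0.07, edgeR adjusted p = 0.000328). Sytl3 overlaps Ezr on the opposite strand.

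Sytl3 had the smallest p between the sexes and Syt3 the largest log2 difference of the members called higher in females, and the 250 bases before their RefSeq starts (GRCm38.p6, plus strand) are shown for that reason. Capitals mark GGTCA, a nuclear receptor half-site, and TGACG, a cyclic AMP response element half-site, on either strand.
Sytl3, chr17:6658809-6659058: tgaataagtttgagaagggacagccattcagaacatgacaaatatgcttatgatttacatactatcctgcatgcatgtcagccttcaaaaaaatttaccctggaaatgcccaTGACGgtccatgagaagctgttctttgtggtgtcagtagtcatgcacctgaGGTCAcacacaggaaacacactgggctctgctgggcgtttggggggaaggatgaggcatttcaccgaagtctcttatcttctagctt
Syt3, chr7:44383876-44384125: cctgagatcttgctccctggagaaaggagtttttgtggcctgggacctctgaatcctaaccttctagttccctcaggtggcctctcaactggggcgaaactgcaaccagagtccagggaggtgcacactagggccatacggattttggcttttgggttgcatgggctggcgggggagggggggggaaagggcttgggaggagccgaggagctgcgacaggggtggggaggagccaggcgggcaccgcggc
The Sytl3 window held 1 match to each, and the Syt3 window, of 62.4% GC, held none. Over both strands GGTCA was in 35.2% and TGACG in 17.8% of the 32851 windows of this length, and in 40.7% and 18.6% of the 59 windows of the 48 members listed. The full palindromes TGACGTCA (1.55% of all windows, which contains TGACG on both strands) and the oestrogen response element (0.0639%, which contains GGTCA on both strands) were in none of the members' windows. Only 48 of the 65 members had a window. Syt4 and Syt13 had none, so nothing is known here of these motifs before them. TGACTCA, the AP-1 site, was in 4.46% of all windows and 3.39% of the members'.

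Of the synaptotagmins that do not bind calcium, 2 were lower in females. Syt12 was at 2.75 to 4.73 CPM in females and 4.62 to 8.87 CPM in males (-0.72 ± 0.09, edgeR adjusted p = 8.83e-07). Syt14 was at 30.9 to 43.1 CPM in females and 37.3 to 53.0 CPM in males (-0.32 ± 0.05, edgeR adjusted p = 3.97e-06), at the fold limit, and its call was lost in 17 of 35 alternatives. Calcium-binding Syt3 and Syt6, which share a disulphide-linked N-terminus, were higher in females. Syt3 had medians of 19.4 CPM in females and 13.9 CPM in males (0.52 ± 0.08, edgeR adjusted p = 8.07e-06), and Syt6 of 19.3 and 14.8 CPM (0.44 ± 0.13, edgeR adjusted p = 0.00937). The ranges of both genes overlapped between the sexes.

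Unc13c (Munc13-3, a priming factor) ran from 1.39 to 6.65 CPM in females and from 3.39 to 6.63 CPM in males (-1.02 ± 0.16, edgeR adjusted p = 1.54e-05). Female PSD mouse 1 held the high female value, and the other females reached 2.73 CPM. Without that mouse and male control mouse 1 the difference was -1.14 ± 0.11 (edgeR adjusted p = 2.5e-08). Stxbp6 (amisyn, which competes with VAMPs) had medians of 14.9 CPM in females and 11.3 CPM in males (0.41 ± 0.09, edgeR adjusted p = 0.00101). Stx19, an epithelial syntaxin, was near the detection limit, with medians of 0.114 and 0.225 CPM (-0.85 ± 0.33, edgeR adjusted p = 0.0488), and lost its call in 27 of 35 alternatives. Stx1a was lower in females by -0.30 ± 0.05 (edgeR adjusted p = 5.96e-05), under the fold limit. Syt1 (0.00 ± 0.07), Snap25 (-0.05 ± 0.04), Syt7 (0.05 ± 0.03) and Unc13a (-0.08 ± 0.06) did not pass.

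**Figure D5:**
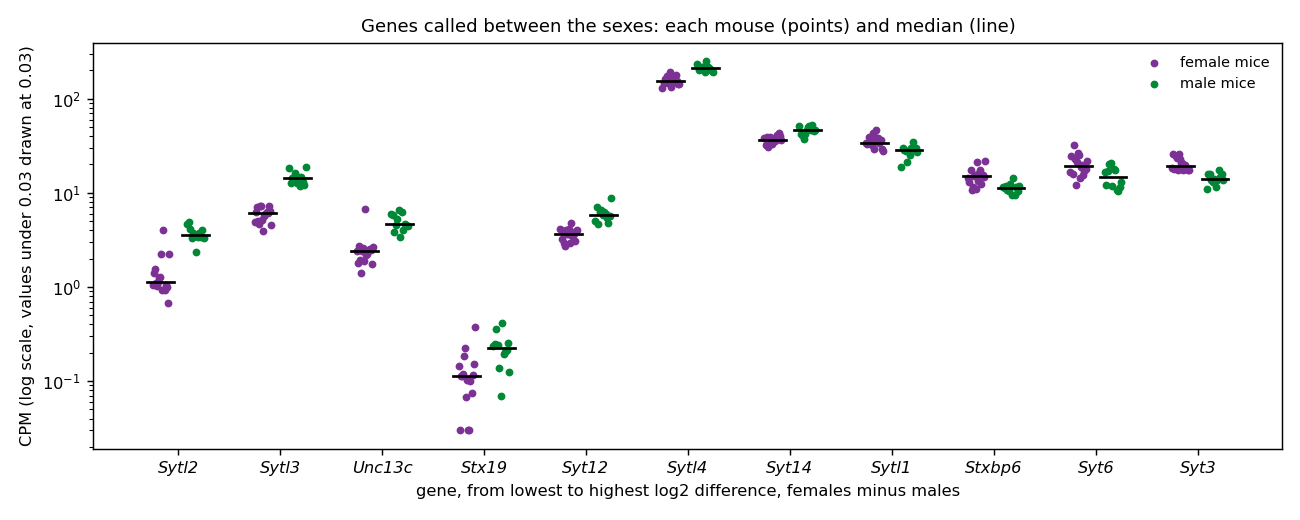
Members called between the sexes, in CPM on a log axis, with 1 point per mouse (16 females, 12 males) and a line at each median. Sytl3 and Sytl4 show no overlap between the sexes, and the female point at 6.65 CPM for Unc13c is PSD mouse 1.

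Hormone genes differed between the sexes in the same libraries. Prl (lactotropes) had medians of 153867 CPM in females and 37087 CPM in males, Gh (somatotropes) of 78319 and 163164, Fshb of 133 and 1015, Lhb of 480.0 and 743, and Cga of 2809 and 4292 (the last 3 from gonadotropes, Cga also from thyrotropes). Tshb had medians of 307 and 434 CPM. Pomc, Pou1f1, Tbx19 and Nr5a1 were not called between the sexes. The part of cell type shares in the 12 differences was not tested.

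The 60 other exocytosis genes examined comprised NSF and its adaptors, other SNAREs, Rab3 and Rab27 with their effectors, priming proteins, the exocyst and vesicle membrane proteins. None was called for restraint or PSD in either sex or over all mice. At an unadjusted p under 0.05 edgeR gave 2 and 17 genes in females, 3 and 2 in males and 3 and 13 over all mice. These counts too stand without the share of all genes at that limit, so no excess can be read from them. For PSD + restraint 1 of 59 was called in females, beside 2.2% of all genes. There Rab3b, a granule GTPase, rose by 0.60 ± 0.12 on the log2 scale (edgeR adjusted p = 0.0137), from 86.1, 59.4, 94.1 and 68.6 to 112, 124, 121 and 107 CPM, without overlap. PSD females were at 116, 113, 95.5 and 106 CPM, above the control mice as well. The call was lost without control mouse 4 (0.55) and with the neurointermediate score as a covariate (0.51). In males 2 of 60 were called for PSD + restraint, beside 2.56% of all genes. Exph5, a Rab27 effector, fell by 0.59 on the log2 scale (SE 0.10, edgeR adjusted p = 0.0069), from 16.1, 15.9, 16.6 and 16.2 to 10.2, 11.4 and 10.5 CPM, and the groups did not overlap. Within PSD males restraint lowered it too (-0.64 ± 0.10, edgeR adjusted p = 0.0203), but the call was lost in 5 of 18 alternatives. With 1 mouse left out it was lost without PSD mouse 1 or 2 or PSD + restraint mouse 1 or 2 (edgeR adjusted p up to 0.103), while the log2 change stayed between -0.73 and -0.52 over the alternatives. Over all mice the PSD + restraint change of Exph5 was -0.45 ± 0.12 (edgeR adjusted p = 0.0154). Syngr4, a synaptogyrin of very low level, rose by 1.85 ± 0.39 in males (edgeR adjusted p = 0.0242), from 0.127, 0.0835, 0.0710 and 0.0960 to 0.463, 0.326 and 0.248 CPM. That call was lost without control mouse 2, 3 or 4 or PSD + restraint mouse 1 or 2 (1.57 to 2.05 with each mouse left out). Over all 18 alternatives the Syngr4 call was lost in 7, and the log2 change ran from 0.26 to 2.05.

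Between the sexes 7 of these 60 genes were called, beside 14.9% of all genes. Rims4 (1.09 ± 0.15), Cadps2 (CAPS2, a priming factor of dense-core granules, 0.62 ± 0.05) and Rph3a (rabphilin, 0.57 ± 0.13) were higher in females on the log2 scale. Rab3b (-0.66 ± 0.08), Erc2 (an active zone scaffold, -0.58 ± 0.05), Sv2c (-0.38 ± 0.09) and Vti1a (a Golgi SNARE, -0.34 ± 0.04) were lower. Cadps2 was at 79.5 to 110.1 CPM in females and 52.5 to 74.0 CPM in males, and Erc2 at 12.4 to 16.97 CPM against 17.8 to 25.3 CPM, neither with overlap. The exocyst and NSF lists held no called gene in this comparison.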

How the data were processed

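Whole pituitary glands of 28 mice were profiled by mRNA sequencing with a stranded kit. The authors aligned the reads to mm10 with MapSplice and made the deposited counts per gene with HTSeq 0.9.1. The strand setting of the counting is not given in the sources used here. The processing notes also name DESeq2 1.16.1. A deposited table of normalized counts holds the same counts divided by 1 factor per mouse and was not used.

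From the counts, low genes were removed with filterByExpr, library sizes were normalised by TMM and edgeR 4.0.16 (R 4.3.3) was fitted across all genes. Within each sex the model held PSD, restraint and their interaction, and over all mice it also held sex. Differences between the sexes in a response came from a fit of 8 group means. Adjusted p-values are Benjamini-Hochberg values over all genes. A gene was called at an adjusted p of at most 0.05 and a 1.25-fold change. The SE is the absolute log2 change divided by the square root of F.

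Alternatives were DESeq2 1.42.0, its size factors in edgeR, no filter on low counts, a replicate block, marker scores as covariates and each mouse left out. Leaving out the 2 libraries that stand apart was added after seeing the data. The code was tested on simulated data.

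Members, lists and tests were chosen with earlier results of these data known. Genes are named if called, if among the 3 smallest p of a treatment comparison, if highest per kb of their family, or by role. Some genes, among them 1 of the 12 called between the sexes, are not reported here. Gene lengths are means over GENCODE transcripts. All 37 pairs of mice within a group differed by more than sampling noise. Counting intervals are not given, since the spread between mice sets the errors.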

Additional observations from a re-analysis of the deposited data

Results flagged for a closer look

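In groups of 4 mice, a value was listed when its gap to the nearest other mouse took up most of the range of the group. This was examined in 165 groups (33 members named in any comparison or by role, 5 groups each), and 11 values were listed, where chance gives about 1 in 20.

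Female PSD mouse 1 stood above the other 3 PSD females for Cplx1 (70.6949 CPM) and Unc13c (6.64875 CPM). Its forebrain score, 2.80, was the highest of all mice. Cplx1 was also far above its group in female PSD + restraint mouse 4 (40.7059 CPM) and in male control mouse 1 (20.8872 CPM), with forebrain scores of 1.75 and 1.17. The part of forebrain tissue in these values was not tested.

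Male control mouse 1, the gland with the neurointermediate lobe score of 1.48, stood above the other male controls for Stxbp5l (32.3708 CPM) and below them for Sytl1 (18.8918 CPM). The part of the missing lobe markers in these values was not tested. Stxbp5l was low in female PSD mouse 3 (28.3552 CPM).

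Sytl1 was high in female PSD mouse 2 (46.2926 CPM) and in female control mouse 3 (38.6869 CPM). Snap25 was low in female restraint mouse 3 (317.322 CPM), and Stx19 was high in male control mouse 3 (0.355015 CPM).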

How the results depend on the processing

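No named result changed direction under any alternative. Of the comparisons of single named genes with their main value, 1434 kept their side of the threshold, 94 lost the call and 2 gained it. The count of members called moved by over 1.5 times in 32 of 480 comparisons. With each mouse left out in turn, the number called was 0 to 2 for restraint in females, 1 to 2 for PSD + restraint in females, 1 to 2 for restraint within PSD in females and 1 to 2 for PSD + restraint in males. It was 0 to 1 for restraint within PSD in males (Syt13, without either restraint mouse, where the lone restrained male is assumed to vary like the other groups) and 1 to 2 for restraint over all mice. With the neurointermediate lobe score as a covariate, 0 members were called for PSD + restraint in females. DESeq2 called 2 members for restraint within PSD in males and 1 for prior PSD within restraint in males. With the replicate number as a block (replicate block), 0 members were called for restraint in females and 1, Syt4, for PSD + restraint in males, where Exph5 had an edgeR adjusted p of 0.0509 (0.114 for restraint within PSD). The numbers do not pair the mice: deviations of mice with the same number in different groups had a median correlation of 0.00022 (87 pairs, -0.35 to 0.40), beside 0.0075 for other numbers, and 7 of 28 mice correlated best with their own number. The number of members called between the sexes ranged from 10 to 14, and the count was 11 without female PSD mouse 1 and male control mouse 1. The causes of these changes were not tested. Each fit with a mouse left out also had fewer mice. Low counts limit what can be said of Syt8, Cplx4, Syt2, Syt10 and Stx19. The male restraint group of 2 limits what could be detected there.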
